A study of Mus musculus with 72 samples.

Results

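The miRNAs described here come from the distal end of the imprinted Dlk1-Dio3 domain, the stretch of mouse chromosome 12 that is transcribed with the non-coding host RNA Mirg. Members were all rows of the deposited count tables named mmu-miR-N, with N any of 32 miRNA numbers of that cluster and with any letter or arm suffix. The rule took 68 of the 1927 mature miRNAs and used no measured value. Small RNA libraries came from the left cortex and striatum and the right cerebellum of male mice, which were wild type or Thap1+/-, that is, with 1 inactive copy of Thap1, a transcription factor gene mutated in DYT6 dystonia. Each genotype was sampled uninjured (naive) or 12 weeks after the right sciatic nerve had been crushed for 1 min at 12 weeks of age, so that 3 regions, 2 genotypes and 2 treatments gave 12 groups. Each group held 6 libraries except wild-type naive cortex, which held 5. The labels call them biological replicates, and Thap1 itself is not measured in small RNA libraries. Single libraries are named by their column in the tables, where CX is cortex, STR striatum and CB cerebellum, and a Thap1+/- mouse is marked DYT6KO (CX_DYT6KO_naive_18).

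The Mirg miRNAs are transcribed from the maternal chromosome as a long polycistron, from which the hairpins of the cluster are cut one by one. Each hairpin can give a mature miRNA from its 5p arm and from its 3p arm, and bases 2 to 8 of the mature strand, the seed, decide most of its pairing with target mRNAs. In cultured rat neurons, transcription of the cluster depends on the activity-regulated factor Mef2, miR-134-5p acts on Limk1 in dendritic spines, and miR-485-5p acts on the synaptic vesicle protein Sv2a. In the developing mouse cortex, miR-369-3p, miR-496 and miR-543 act on N-cadherin, and transcripts of the miR-376 family are edited from A to I in brain.

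In the RefSeq annotation of GRCm38.p6, 33 of the 35 hairpin symbols behind these rows had a position. They lay on chromosome 12 between 109709060 and 109743795, a span of 34.7 kb that opens with Mir379, all on the plus strand. The GENCODE gene Mirg on that build (109729764 to 109749460) holds 12 of them. A mature sequence was found for 63 of the 68 rows. The sequences below are RefSeq's, written 5′ to 3′ with the seed in capitals. The first set holds the 6 members with the highest mean level over the 3 regions.

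miR-382-5p: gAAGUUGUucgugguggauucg
miR-411-5p: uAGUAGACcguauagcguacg
miR-300-3p: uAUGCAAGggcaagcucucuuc
miR-376b-3p: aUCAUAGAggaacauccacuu
miR-154-5p: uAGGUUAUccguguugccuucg
miR-369-5p: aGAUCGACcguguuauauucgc

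The second set holds further members whose cortical levels are followed library by library below, except miR-487b-3p, for which no sequence was at hand.

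miR-411-3p: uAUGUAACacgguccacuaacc
miR-380-3p: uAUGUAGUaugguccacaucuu
miR-369-3p: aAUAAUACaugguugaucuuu
miR-543-5p: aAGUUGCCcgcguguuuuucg

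The third set holds the members that share a seed, among the 63 rows with a sequence. There were 5 such seeds over 10 rows, and miR-411-3p, printed above, shares its seed with miR-379-3p. Some of these strands were hardly counted: miR-453 had no count, miR-496a-5p at most 3 and miR-376c-5p at most 7 in a library.

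miR-379-3p: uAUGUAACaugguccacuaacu
miR-379-5p: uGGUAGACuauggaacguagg
miR-1193-5p: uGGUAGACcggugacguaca
miR-453: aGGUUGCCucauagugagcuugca
miR-496a-5p: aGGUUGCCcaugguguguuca
miR-494-5p: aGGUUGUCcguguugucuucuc
miR-410-5p: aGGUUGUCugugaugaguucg
miR-376c-5p: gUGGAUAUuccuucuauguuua
miR-376b-5p: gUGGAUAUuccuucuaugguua

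The pairs miR-379-3p with miR-411-3p and miR-376b-5p with miR-376c-5p are alike over nearly their whole length. How the authors' counting divided reads among them, and among the miR-376 3p strands, is uncertain. The strands of miR-299a and miR-299b are joined in the tables and are written here as miR-299a.

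The libraries held 7479448 to 12589140 counts. Neuronal miRNAs were present in each region, in no common order. miR-124-3p had a median of 14019 CPM (counts scaled to a common library total) in cortex, 8709 in striatum and 19605 in cerebellum. In that order miR-9-5p had 31467, 22870 and 36057, miR-128-3p 62826, 31789 and 18631, miR-137-3p 6620, 6822 and 1149, and miR-218-5p 908, 995 and 426. The cerebellum-enriched markers matched the labels, with miR-206-3p at 21.9, 239 and 3399, miR-195a-5p at 690, 173 and 3173 and miR-497a-5p at 735, 222 and 3497. Markers of other cells were uneven. Of the red-cell markers, miR-144-5p had a median of 0 in each region and miR-451a of at most 1.14 CPM, while miR-486a-5p had 33.8, 36.4 and 192 CPM in cortex, striatum and cerebellum. Choroid plexus miR-211-5p had a median of 0 in each region and miR-204-5p one of 84.9, 56.6 and 565, and vessel miR-126a-3p reached 22217, 16711 and 21167. Cerebellar RNA was extracted with another kit than cortical and striatal RNA, per the labels' protocols, so the kit and the cerebellum cannot be told apart. let-7 and miR-98 rows took a large and uneven share of the counts. In cortex they held 51.5% to 56.6% of a wild-type naive library and 41.4% to 48.6% of a wild-type crush library. CX_DYT6KO_naive_18 stood at 56.1%, against 46.1% to 49.6% in the rest of its group, and CB_DYT6KO_crush_47 and CB_DYT6KO_crush_86 stood at 75.7% and 74.2%, against 61.2% to 67.5%. The counts of calls, the joint fit's genotype differences and the summed shares that rest on these libraries are given with and without them. In these bulk samples, fewer cells of a type and less RNA per cell cannot be told apart.

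Most of the cluster's reads came from few strands. Averaged over the 3 regions, 8 members had at least 1000 CPM, 14 had 100 to 1000, 14 had 10 to 100, 27 had less than 10, and 5 had no count in any library. Mature miRNAs are of nearly one length, so their CPM levels are set side by side without a length correction, but ligation and amplification can favour one sequence over another. The 6 most abundant members made up 70.9% of the cluster's reads in cortex, 66.7% in striatum and 73.5% in cerebellum. miR-382-5p was the highest, with a mean of 4147 CPM over the regions, followed by miR-411-5p with 3808 CPM. Both arms of a hairpin were seldom equal: miR-382-3p, from the hairpin of the highest member, had 14 to 110 counts in a library, against at least 27948 for miR-382-5p.

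**Figure D1:**
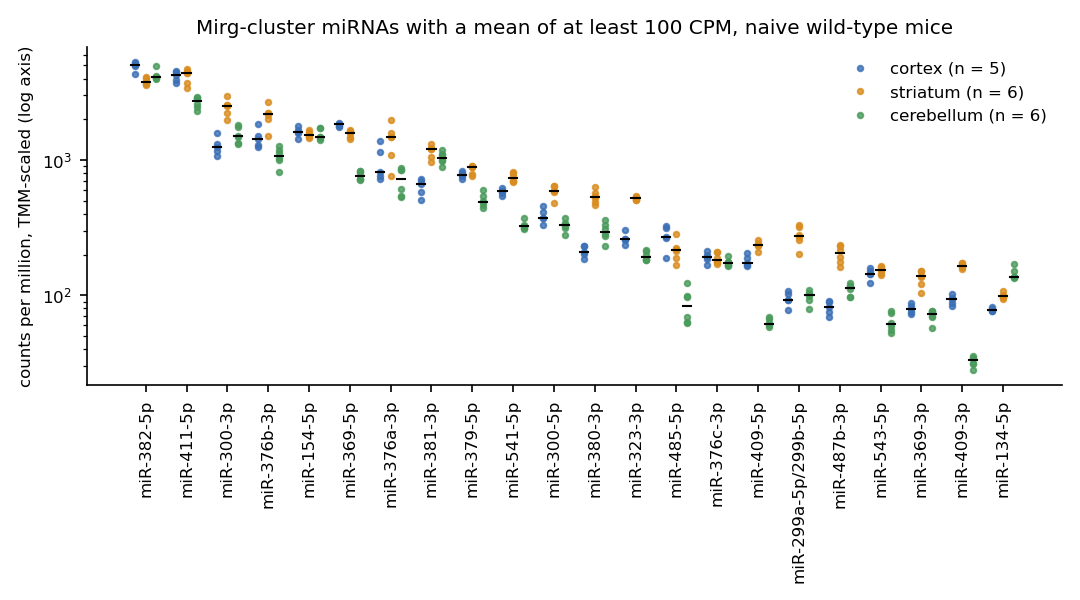
Levels of the 22 Mirg-cluster miRNAs with a mean of at least 100 CPM, by region, in naive wild-type libraries, as TMM-scaled CPM on a log axis. Each point is a library and each line a group median; miR-382-5p and miR-411-5p stand highest, striatum points lie above cortex for miR-300-3p and miR-299a-5p, and cerebellum points lie lowest for miR-369-5p and miR-409-3p and highest for miR-134-5p.

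The first comparison was between brain regions in the 17 naive wild-type libraries, where CPM were scaled by TMM in 1 fit of those libraries. The striatum carried the highest levels of most of the cluster and the cerebellum the lowest. Of 51 members tested, 30 were higher and 3 lower in striatum than in cortex (edgeR's quasi-likelihood test, Benjamini-Hochberg adjusted p under 0.05 over all miRNAs tested), where 54.6% of all 579 miRNAs were called, 35.8% higher and 18.8% lower. The median log2 fold change was 0.45 over the members and 0.19 over all miRNAs. With RLE scaling these medians were 0.27 and 0.02, and 26 members were higher and 8 lower. Between cerebellum and cortex 10 were higher and 28 lower (68.6% of all called, 37.3% higher and 31.3% lower), with a median of -0.45 against 0.06 over all miRNAs. Between cerebellum and striatum 2 were higher and 40 lower (68.4% of all called, 31.1% higher and 37.3% lower), with a median of -0.96 against -0.08.

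The 6 most abundant members did not share one regional order. miR-382-5p was highest in cortex, with 4311, 5066 and 5266 CPM (lowest, median and highest library), against 3564, 3749 and 4088 in striatum and 3959, 4108 and 4951 in cerebellum. It was one of the 3 members lower in striatum than in cortex (log2 fold change -0.39 ± 0.07, SE, adjusted p 0.000121), and no striatal library reached the lowest cortical one. The cortical and cerebellar libraries of miR-382-5p overlapped.

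miR-411-5p lay at 3678, 4243 and 4575 CPM in cortex and 3403, 4388 and 4703 in striatum, which overlapped fully, and at 2312, 2733 and 2904 in cerebellum. miR-369-5p showed the same low cerebellum, with 707, 760 and 836 CPM against 1741, 1831 and 1862 in cortex and 1419, 1595 and 1678 in striatum. In both, every cerebellar library lay below every library of the other regions. For miR-369-5p the cerebellum differed from cortex by -1.24 ± 0.06 on the log2 scale.

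miR-300-3p was highest in striatum, with 1984, 2515 and 2991 CPM against 1064, 1241 and 1595 in cortex and 1322, 1492 and 1830 in cerebellum. miR-376b-3p was ordered striatum, cortex, cerebellum, with medians of 2184, 1440 and 1076 CPM, and its striatal and cortical libraries overlapped (0.54 ± 0.14, adjusted p 0.00237). miR-154-5p was nearly even, with medians of 1540 CPM in striatum, 1600 in cortex and 1473 in cerebellum and overlapping libraries in all regions.

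Among members with a mean of at least 10 CPM, those with the largest striatal excess over cortex were less abundant than these. miR-485-3p had 19.8, 25.7 and 35.8 CPM in striatum, 5.77, 6.64 and 11.1 in cortex and 1.78, 2.56 and 5.46 in cerebellum, 3 ranges with no overlap (striatum over cortex 1.83 ± 0.27, adjusted p 1.11e-05). Both arms of miR-299a followed, with miR-299a-5p at a median of 276 CPM in striatum and 92.7 in cortex (1.55 ± 0.12) and miR-299a-3p at 65.4 and 25.9 (1.37 ± 0.10, adjusted p 1.20e-09). miR-380-3p (1.35 ± 0.11), miR-487b-3p (1.31 ± 0.11) and miR-411-3p (1.12 ± 0.13) were also higher in striatum, without overlap. Below that level, miR-544-3p stood 1.86 ± 0.21 higher. Besides miR-382-5p, the members lower in striatum were miR-376b-5p (-0.32 ± 0.10) and miR-369-5p (-0.21 ± 0.06).

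miR-134-5p, the spine miRNA, was highest in cerebellum. It had 135, 137 and 172 CPM in cerebellum, 93.9, 98.6 and 108 in striatum and 76.1, 78.4 and 81.6 in cortex, so that all cerebellar libraries stood above all others. The cerebellum was higher by 0.88 ± 0.07 than cortex (adjusted p 3.77e-09) and by 0.54 ± 0.07 than striatum (adjusted p 1.16e-06). miR-382-5p, by 0.15 ± 0.07, was the other member higher in cerebellum than in striatum, with an adjusted p of 0.0484 that did not hold without let-7 and miR-98.

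Other members with a mean of at least 10 CPM that were higher in cerebellum than in cortex included miR-381-3p (0.71 ± 0.10), miR-299a-3p (0.64 ± 0.09), miR-380-3p (0.50 ± 0.11), miR-380-5p (0.50) and miR-487b-3p (0.45 ± 0.11). Under 10 CPM, miR-382-3p (1.06 ± 0.18) and miR-544-3p (1.02 ± 0.22) were higher too. The most reduced in cerebellum, of those with at least 10 CPM, were miR-323-5p (-2.27 ± 0.26 against cortex), the Sv2a regulator miR-485-5p (-1.67 ± 0.18) and both arms of miR-409 (-1.51 ± 0.08 for 5p and -1.50 ± 0.08 for 3p). miR-409-3p showed the step between regions most plainly, with 28.3, 33.1 and 35.7 CPM in cerebellum, 82.9, 93.7 and 102 in cortex and 157 to 175 in striatum (cerebellum over striatum -2.34 ± 0.07). Against striatum, miR-485-3p (-3.05 ± 0.27), miR-323-5p (-2.06 ± 0.25), miR-409-5p (-1.90), miR-411-3p (-1.64) and miR-412-5p (-1.51) were among those lowest in cerebellum.

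Summed over all members, the cluster took a mean of 2.84% of the counts of a wild-type naive library in striatum, 1.98% in cortex and 1.42% in cerebellum, with no overlap between regions. The order held when let-7 and miR-98 were left out of the total, with 5.11%, 4.40% and 3.40%. Within a region the summed share of treated or Thap1+/- libraries overlapped that of their controls in each comparison. In cortex the mean share was 2.28% in wild-type crush, 2.23% in Thap1+/- naive and 2.18% in Thap1+/- crush. The log2 ratio of wild-type crush to naive was 0.21 over all counts and -0.06 without let-7 and miR-98. The corresponding ratio of Thap1+/- to wild-type naive cortex was 0.17 and -0.02, that of Thap1+/- to wild-type crush cerebellum -0.16 and 0.16, and that of crush to naive Thap1+/- cerebellum -0.17 and 0.14. The sign of these 4 ratios therefore turned with the denominator. Without CX_DYT6KO_naive_16 and CX_DYT6KO_naive_18 the genotype ratio in naive cortex was 0.19 and -0.05. Without CB_DYT6KO_crush_47 and CB_DYT6KO_crush_86 the 2 cerebellar ratios were -0.10 and 0.06 for genotype and -0.11 and 0.04 for crush, with overlap in each.

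**Figure D2:**
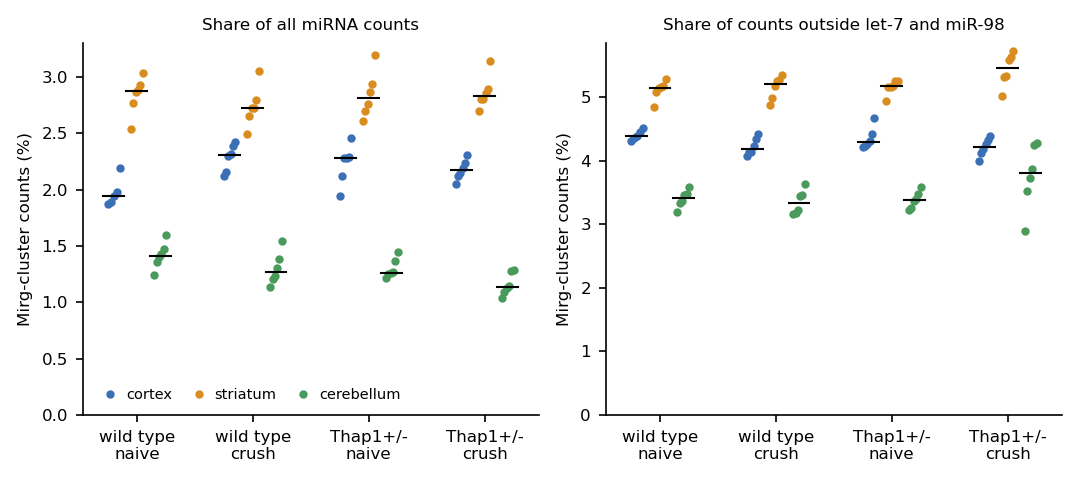
Summed counts of the 68 members as a percentage of all miRNA counts of a library (left) and of the counts outside let-7 and miR-98 (right), for the 12 groups, with each point a library and each line the group median. On the left the group means are 2.74% to 2.87% in striatum, 1.98% to 2.28% in cortex and 1.16% to 1.42% in cerebellum, and the right panel keeps that order of regions.

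In wild-type cortex, libraries from crushed mice differed from naive ones in 20 of the 53 members tested, 14 higher and 6 lower. Over all miRNAs 192 of 549 were called, 35.0% (21.1% higher and 13.8% lower), so the members' share was near that of the whole table. The median log2 fold change was 0.23 over members and 0.06 over all miRNAs. Members that rose were led by miR-487b-3p, miR-380-3p, miR-411-3p and miR-369-3p, and those that fell by miR-382-5p and miR-543-5p. In 17 of the 20 the 2 groups did not overlap. That count has no share over all called miRNAs beside it and marks no trait of the cluster. A mean under 10 CPM was found in 5 of the 20. Levels in this and the following cortex comparisons are CPM of the fit over the 23 cortex libraries.

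miR-487b-3p had 77.3, 80.4, 84.4, 97.7 and 102 CPM in the 5 naive libraries and 175, 190 and 245 (lowest, median and highest of 6) after crush. miR-411-3p had 13.7, 15.8, 17.9, 18.0 and 20.2 CPM in naive libraries and 29.1, 33.1 and 36.4 after crush. In both, all crush libraries stood well above all naive ones, and the levels rose by 1.19 ± 0.20 (adjusted p 0.000533) and 0.93 ± 0.19 (adjusted p 0.00104) on the log2 scale.

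miR-380-3p had 205.7, 215.1, 215.7, 248.5 and 262.3 CPM in naive libraries and 339.6, 389.6 and 437.5 after crush (0.77 ± 0.15, adjusted p 0.000948). miR-369-3p, one of the N-cadherin regulators, had 76.7, 80.3, 85.7, 90.0 and 99.1 CPM and then 109.4, 132.8 and 175.3 (0.65 ± 0.13, adjusted p 0.00107). Here too the groups did not overlap.

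The most abundant member moved the other way. miR-382-5p had 4895, 5192, 5538, 5561 and 5688 CPM in naive libraries and 3158, 3564 and 3613 after crush, a fall of every crush library below every naive one (-0.63 ± 0.11, adjusted p 0.000533). miR-543-5p went from 140, 155, 156, 164 and 170 CPM to 103, 115 and 126 (-0.45 ± 0.13, adjusted p 0.00875). Both fell without overlap.

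miR-411-5p had 4011, 4086, 4583, 4920 and 5087 CPM in naive libraries and 3559, 3694 and 3994 after crush (-0.28 ± 0.10, adjusted p 0.0277). miR-369-5p had 1876, 1976, 1988, 1997 and 2003 CPM and then 1708, 1740 and 1856 (-0.16 ± 0.06, adjusted p 0.0328). The steps were small and the groups only just apart. For miR-411 and miR-369 the 5p strand thus fell while the 3p strand of the same hairpin rose.

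The other members that rose were miR-544-3p (1.17 ± 0.24), miR-382-3p (0.82 ± 0.21), miR-379-3p (0.77 ± 0.19), miR-412-3p (0.76), miR-381-5p (0.63), miR-329-5p (0.60), miR-299a-5p (0.53), miR-376a-5p (0.46), miR-299a-3p (0.44) and miR-300-3p (0.39). miR-323-5p (-0.65) and miR-410-5p (-0.50) fell. miR-412-3p, miR-300-3p and miR-323-5p had overlapping groups. The synaptic regulators miR-134-5p (0.13 ± 0.08, adjusted p 0.232) and miR-485-5p (-0.36 ± 0.24, adjusted p 0.265) did not pass. Summed neuron markers lay at 102078 to 123379 CPM in naive and 100699 to 130066 in crush cortex, and summed microglia and blood markers, miR-223-3p, miR-146a-5p and miR-155-5p, at 63.8 to 77.5 and 71.3 to 103. Summed astrocyte markers, the miR-29 family, lay at 27993 to 41958 CPM in naive and 41317 to 57217 in crush cortex, and summed vessel markers at 36430 to 45032 and 29756 to 35098, the latter without overlap. The part of these markers in the result was not tested.

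**Figure D3:**
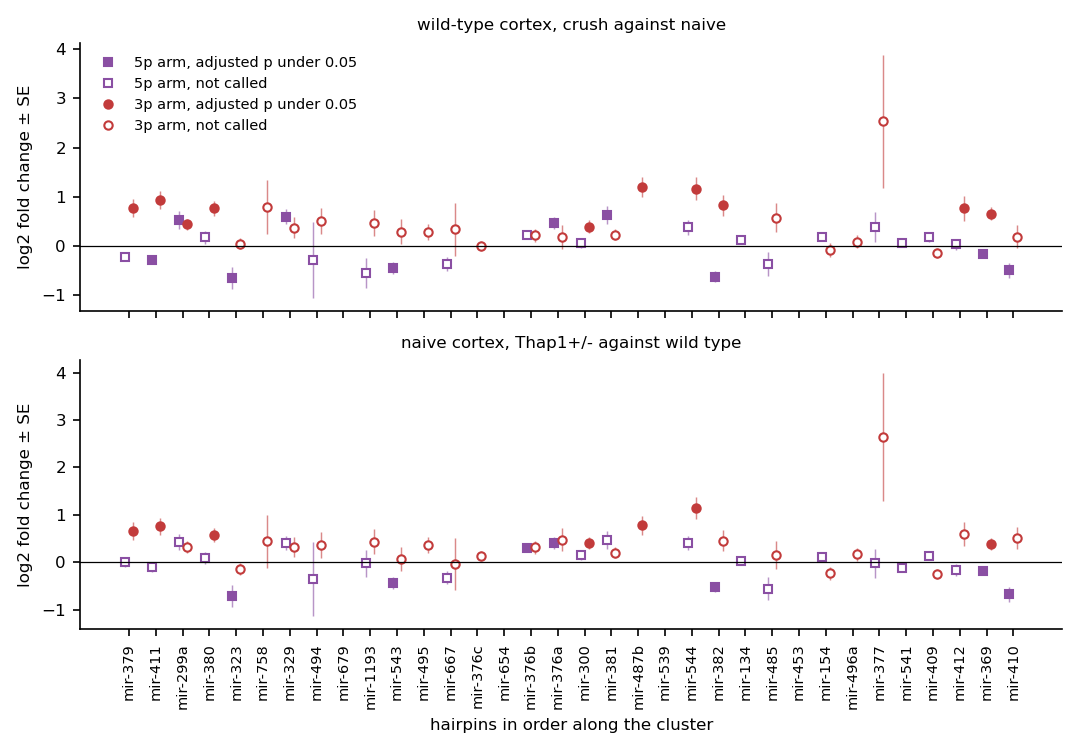
Log2 fold change of the tested members in cortex, with standard errors as bars and hairpins in their order along chromosome 12, for crush over naive in wild type (top) and Thap1+/- over wild type in naive mice (bottom). Filled signs mark calls; in the top panel 25 of 28 3p strands are above 0 while 5p strands lie on both sides, and the high open point at mir-377 is miR-377-3p, which was at 0 in most libraries.

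Arm and direction went together. Of 28 tested 3p members 10 rose and none fell after crush, and 25 had a positive fold change, with a median of 0.42. Of 25 tested 5p members 4 rose and 6 fell, with a median of 0.05. The same lean, smaller in size, was present outside the cluster: 54 of 204 other 3p strands rose and 17 fell (median 0.18), and 46 of 273 other 5p strands rose and 51 fell (median -0.09).

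The log2 ratio of 3p to 5p counts within a hairpin does not depend on library scaling, but it can move with the G content of the arms, taken up below. It was computed with a pseudocount of 0.5 for the 23 member hairpins with both arms tested. For miR-382 it lay at -10.8, -10.2 and -9.56 in naive and -9.06, -8.73 and -8.54 in crush libraries, and for miR-411 at -8.18, -8.09 and -7.82 against -6.96, -6.87 and -6.64. In both the 3p strand, though still rare, gained on its partner in each crush library over each naive one. The difference of group means was 1.49 for miR-382, 1.21 for miR-411, 0.99 for miR-379 and 0.81 for miR-369. The groups did not overlap in 8 of the 23 member hairpins, all higher after crush (miR-300, miR-369, miR-379, miR-380, miR-382, miR-411, miR-485 and miR-544), where 30.7% of all 140 hairpins did not overlap. Of the 117 hairpins outside the cluster 25 were higher and 10 lower. The median difference was 0.72 over member hairpins and 0.17 over the others. No p was computed for these ratios. In miR-382, miR-411, miR-379 and miR-369 the 3p strand held 9.09%, 13.6%, 13.6% and 14.3% G, and the 5p strand 40.9%, 28.6%, 38.1% and 22.7%. In some other hairpins, such as miR-299a (31.8% in 3p and 13.6% in 5p), the 3p strand held more. The part of G content in the ratios was not tested.

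**Figure D4:**
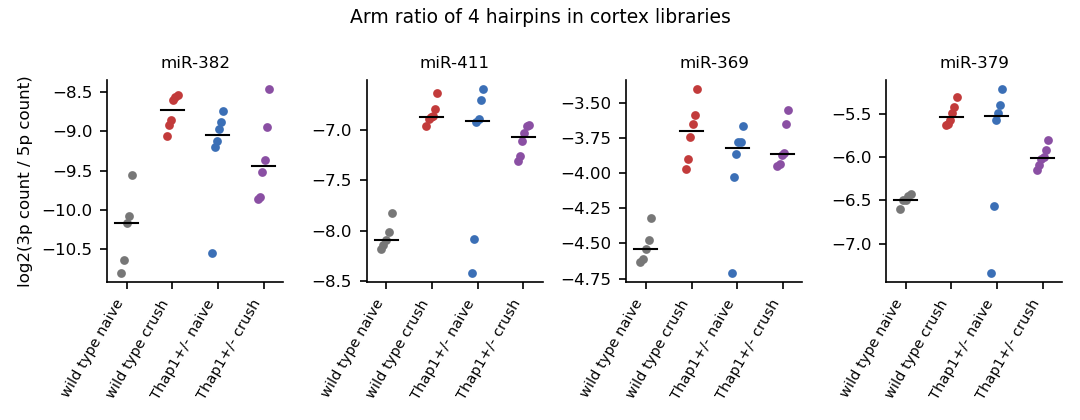
Log2 ratio of 3p to 5p counts of 4 member hairpins in the cortex groups, with each point a library and each line the group median. Wild-type crush lies above wild-type naive without overlap, and in Thap1+/- naive 1 or 2 libraries lie at the wild-type naive level or below it, apart from the others.

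The fold changes also followed the base composition of the strand. Across the 50 tested members with a sequence, the log2 fold change after crush in wild-type cortex had a Pearson r of -0.60 and a Spearman rho of -0.64 with the percentage of G, and across 419 other miRNAs r was -0.43 and rho -0.59. miRNAs share libraries and are not independent, so no p is given. G-poor strands such as miR-369-3p and miR-380-3p, printed above, rose, and G-rich miR-382-5p fell. The slope of level on G content, fitted in each library on miRNAs outside the cluster, moved with the groups: per 10% G it was 0.0317, 0.189 and 0.245 on the log2 scale in wild-type naive cortex and -0.146, -0.0705 and 0.0186 in wild-type crush.

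When each library's slope was entered as an offset, on the 469 miRNAs with a sequence, 9 members rose and 5 fell of 50 (21.5% of all called), against 13 and 6 of the same 50 without the offset, and the median was 0.09 against 0.23. miR-411-3p (0.56 ± 0.16, adjusted p 0.0133), miR-380-3p (0.51 ± 0.13, adjusted p 0.00613), miR-369-3p (0.30 ± 0.08, adjusted p 0.0126) and miR-382-5p (-0.33 ± 0.08, adjusted p 0.00399) still passed, with smaller changes. miR-543-5p (-0.45 ± 0.12) and miR-411-5p (-0.28 ± 0.10) passed with the same fold change as without the offset, and miR-369-5p with a larger one (-0.31 ± 0.07 against -0.16 ± 0.06). miR-379-3p (0.40, adjusted p 0.0733) and miR-382-3p (0.35, adjusted p 0.147) no longer passed. miR-134-5p was higher after crush with the offset alone (0.54 ± 0.10, adjusted p 0.00113). miR-487b-3p had no sequence and could not be fitted. This offset was added after the data had been seen.

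**Figure D5:**
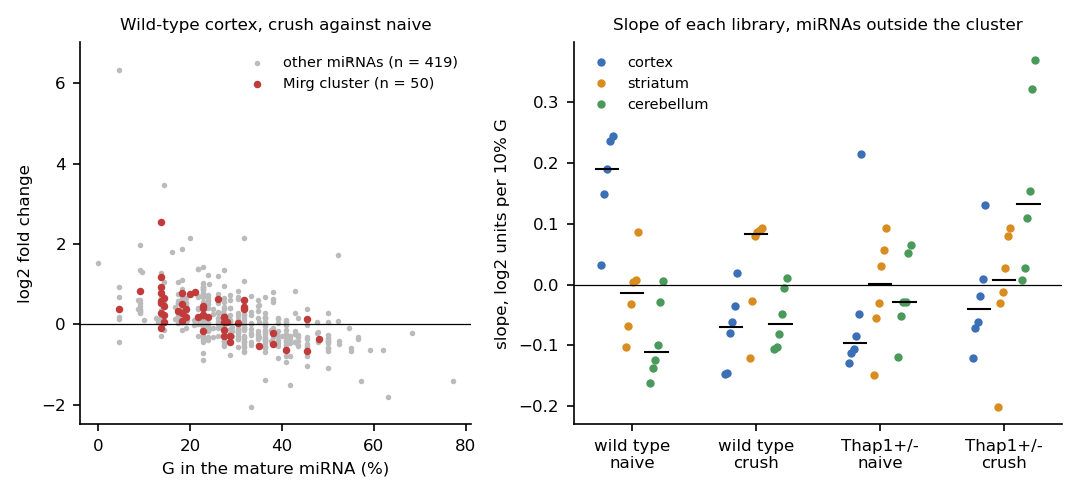
Left, log2 fold change of crush over naive in wild-type cortex against the percentage of G in the mature strand, for 50 members (r of -0.60) and 419 other miRNAs (r of -0.43), where the highest member point is miR-377-3p, at 0 in most libraries. Right, the slope of level on G content of each library by group and region, with medians as lines, high in wild-type naive cortex and in Thap1+/- crush cerebellum.

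In naive cortex, Thap1+/- mice differed from wild type in 14 of 53 members, 9 higher and 5 lower (20.2% of all miRNAs called, 12.8% higher and 7.47% lower), with a median log2 fold change of 0.17 against -0.01 over all. This comparison shares its wild-type naive libraries with the crush comparison in wild type, so the 2 sets of calls are not independent. Most of the calls did not separate the groups, since CX_DYT6KO_naive_18, and for some miRNAs CX_DYT6KO_naive_16, lay with the wild type. Of the 14, miR-410-5p (-0.68) alone had no overlap.

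miR-411-3p had 14.99 CPM in CX_DYT6KO_naive_18, 16.5 in CX_DYT6KO_naive_16 and 32.8 to 37.1 in the other 4 Thap1+/- libraries, against 13.7 to 20.2 in wild type (0.75 ± 0.19, adjusted p 0.0117). miR-487b-3p had 72.6 and 93.3 CPM in those libraries and 178 to 191 in the others (0.78 ± 0.20, adjusted p 0.0128). The same 2 libraries stood at the wild-type level in both.

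miR-380-3p had 195 CPM in CX_DYT6KO_naive_18, 276 in CX_DYT6KO_naive_16 and 364 to 421 in the rest (0.58 ± 0.15, adjusted p 0.0138). miR-379-3p, with the seed of miR-411-3p, had 6.59 and 10.1 CPM against 15.3 to 19.98 (0.65 ± 0.19, adjusted p 0.0214). The pattern was again that of 4 libraries against 2.

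For the members that fell, CX_DYT6KO_naive_18 stood alone. miR-382-5p had 5308 CPM there and 3270 to 3674 in the other 5 (-0.52 ± 0.11, adjusted p 0.00683), and miR-543-5p had 176 against 83.7 to 119 (-0.43 ± 0.13, adjusted p 0.0214). miR-369-5p had 1948 against 1675 to 1749 CPM (-0.18 ± 0.06, adjusted p 0.0329) and miR-323-5p 28.8 against 7.29 to 17.7 (-0.72 ± 0.23, adjusted p 0.0332). The slope on G content was 0.214 in CX_DYT6KO_naive_18 and -0.0855 in CX_DYT6KO_naive_16, in a group with a median of -0.0961.

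Without both libraries 27 members were called, 17 higher and 10 lower, where 225 of all 560 miRNAs were called. miR-487b-3p then stood at 1.07, miR-411-3p at 1.05 and miR-382-5p at -0.63. CX_DYT6KO_naive_18 lay with the wild type in each of these, and CX_DYT6KO_naive_16 in both 3p strands. Leaving them out therefore makes these changes larger by itself and adds no support. Without CX_DYT6KO_naive_18 alone 28 members were called, a count with no share of all miRNAs in that refit beside it. With the G-content offset and all libraries 9 members were called, 4 higher and 5 lower (13.4% of all called), and miR-411-3p did not pass (0.41, adjusted p 0.0867). A fit of these 2 groups alone called none. The fold change and G content correlated with r of -0.55 over the members and -0.42 over other miRNAs.

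The crush effect differed between genotypes in cortex for 8 of 53 members, 1 higher and 7 lower in Thap1+/- (13.5% of all called, 5.65% higher and 7.83% lower), with a median difference of -0.32 against -0.04 over all. miR-382-5p (0.72 ± 0.15, adjusted p 0.0124), miR-487b-3p (-1.11 ± 0.28, adjusted p 0.0134), miR-411-3p (-0.98 ± 0.25, adjusted p 0.0146), miR-379-3p (-0.89 ± 0.26, adjusted p 0.0259) and miR-329-5p (-0.64 ± 0.21, adjusted p 0.0449) were called, with miR-544-3p, miR-329-3p and miR-377-3p. The count of members called was 28 without CX_DYT6KO_naive_16 and CX_DYT6KO_naive_18, where 207 of all 560 miRNAs were called. With the G-content offset it was 4, where 43 of all 469 were called. The interaction draws on the same wild-type naive libraries as the wild-type crush and naive genotype comparisons, so its calls are not independent of theirs.

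Within Thap1+/- cortex, no member was called between crush and naive (edgeR; 0.729% of all called, 0.364% higher and 0.364% lower). At an unadjusted p under 0.05 there were 6, a count with no share of all miRNAs at that cutoff beside it. DESeq2 called 2, where 13 of all 592 were called. Without the 2 libraries edgeR called 5, where 25 of all 560 were called. The smallest p values above 10 CPM belonged to miR-134-5p (0.25 ± 0.08, adjusted p 0.135), miR-541-5p (0.23 ± 0.08, adjusted p 0.262) and miR-376c-3p (-0.22 ± 0.10, adjusted p 0.456). Levels in Thap1+/- crush libraries were 132 to 196 CPM for miR-487b-3p, 26.9 to 30.6 for miR-411-3p, 351 to 517 for miR-380-3p and 3251 to 4639 for miR-382-5p.

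Between the genotypes after crush, no cortical member was called by edgeR or DESeq2 (0.0% of all called by edgeR), with 5 at an unadjusted p under 0.05. The 0.0% is at the adjusted cutoff and is no measure for those 5. Of members with at least 10 CPM the nearest were miR-379-5p (0.25 ± 0.09, adjusted p 0.510), miR-134-5p (0.15) and miR-382-5p (0.19).

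In striatum, 52 members were tested of 575 miRNAs, and miR-411-3p was the single miRNA called between crush and naive wild-type mice (0.174% of all). It had 33.6, 41.7 and 45.0 CPM in naive and 26.8, 30.4 and 33.1 in crush libraries, which did not overlap (-0.42 ± 0.09, adjusted p 0.0399). The direction was opposite to that in cortex. It was no longer called with RLE scaling, with no filter on low counts, in a fit of the 2 groups alone, with the G-content offset or without any one of 17 of the 24 libraries. In Thap1+/- striatum miR-411-3p had 30.0 to 36.8 CPM in naive and 28.4 to 34.9 in crush libraries.

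No other striatal comparison called a member with edgeR (0.0% of all in each) or DESeq2. At an unadjusted p under 0.05 there were 7 members for genotype in naive mice, 5 for genotype after crush, 8 for crush in Thap1+/- and 5 for the interaction. These counts have no share of all miRNAs at that cutoff beside them, since the 0.0% is at the adjusted one. Among members with a mean of at least 10 CPM, miR-411-3p (-0.26 ± 0.09, adjusted p 0.988), miR-379-5p (0.18) and miR-496a-3p (-0.23) had the smallest p in naive mice. After crush they were miR-300-5p (0.31 ± 0.10, adjusted p 0.700), miR-329-5p (0.41) and miR-379-5p (0.20). For crush in Thap1+/- they were miR-376b-5p (0.35 ± 0.13, adjusted p 0.445), miR-376c-3p (0.22) and miR-411-5p (0.26), and for the interaction miR-411-3p (0.35), miR-300-5p (0.33) and miR-376c-3p (0.28).

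In cerebellum after crush, Thap1+/- mice differed from wild type in 9 of 48 members, 3 higher and 6 lower (13.4% of all called, 4.35% higher and 9.06% lower), with a median of -0.10 against 0.01. None of the 9 separated the groups. miR-485-5p had 59.3, 74.2 and 90.7 CPM in wild type and 87.8, 123 and 137 in Thap1+/- (0.66 ± 0.17, adjusted p 0.0159). miR-300-3p had 1034, 1200 and 1242 CPM and then 807, 905 and 1037 (-0.34 ± 0.09, adjusted p 0.0161). The ranges of both met only at their ends.

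miR-376a-3p had 473, 597 and 750 CPM in wild type and 396, 432.5 and 474 in Thap1+/- (-0.45 ± 0.13, adjusted p 0.0287). miR-299a-3p (-0.39 ± 0.12, adjusted p 0.0364) and miR-544-5p (-0.40 ± 0.13, adjusted p 0.0463) were also lower, as were miR-382-3p (-0.62) and miR-329-5p (-0.42). miR-323-5p (1.05) and miR-667-5p (0.52) were higher. The slope on G content was -0.105, -0.0655 and 0.0112 in wild-type crush and 0.00749, 0.132 and 0.370 in Thap1+/- crush libraries, and the fold change rose with G content over members (r 0.53, rho 0.39, 45 miRNAs) and others (r 0.52, rho 0.62, 425 miRNAs). With the G-content offset no member was called (0.851% of all). None was called without CB_DYT6KO_crush_47 and CB_DYT6KO_crush_86, which had the highest slopes (0.321 and 0.370), where 10 of all 578 miRNAs were called. Without CB_DYT6KO_crush_117 and CB_DYT6KO_crush_133, the least different pair of libraries, 18 members were called, where 170 of all 581 miRNAs were. Summed red-cell markers lay at 129 to 268 CPM in wild-type crush and 202 to 287 in Thap1+/- crush cerebellum. Most of that sum is miR-486a-5p, with a cerebellar median of 192 CPM, against 9.16 for miR-144-3p and 0.647 for miR-451a. Summed astrocyte markers lay at 28293 to 35577 CPM in wild-type crush and 19060 to 28526 in Thap1+/- crush. The part of both marker sums in the result was not tested.

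Crush against naive in Thap1+/- cerebellum called 2 members lower (5.25% of all called, 1.27% higher and 3.99% lower). miR-323-3p had 151, 178 and 193 CPM in naive and 105, 130 and 157 in crush libraries (-0.39 ± 0.11, adjusted p 0.0376), and miR-382-3p fell by 0.57 ± 0.15 on the log2 scale (adjusted p 0.0314). The groups of both overlapped. Neither was called with the G-content offset (0.0% of all) or without CB_DYT6KO_crush_47 and CB_DYT6KO_crush_86.

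The other cerebellar comparisons called no member with edgeR or DESeq2 (0.0% of all by edgeR). That 0.0% is at the adjusted cutoff, and the unadjusted counts that follow have no share of all miRNAs beside them. At an unadjusted p under 0.05 there were 4 for genotype in naive mice, miR-382-3p, miR-376a-5p, miR-329-5p and miR-381-5p. Of members with at least 10 CPM the smallest p values there belonged to miR-376a-5p (-0.25, adjusted p 0.497), miR-485-5p (0.33 ± 0.17, adjusted p 0.579) and miR-380-3p (-0.26), the last 2 above an unadjusted 0.05. There were 7 for crush in wild type, where at that level the smallest belonged to miR-380-3p (-0.42 ± 0.14, adjusted p 0.503), miR-154-5p (0.21) and miR-376a-5p (-0.25). The interaction gave 3, and at that level miR-323-3p (-0.39), miR-380-3p (0.43) and miR-300-3p (-0.22) had the smallest p, the last above an unadjusted 0.05.

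Whether cortex differed from the other regions was tested in 1 fit of all 71 libraries, in which libraries of different regions entered as independent and 55 members were tested. The crush effect in wild type was higher in cortex than in striatum for 13 members and lower for 2 (22.0% of all called, 15.6% higher and 6.41% lower), with a median difference of 0.33 against 0.09 over all. miR-487b-3p (1.54 ± 0.28, adjusted p 0.000101), miR-411-3p (1.38 ± 0.21, adjusted p 5.78e-06), miR-380-3p (1.16 ± 0.23) and miR-369-3p (0.84) differed one way and miR-382-5p (-0.71 ± 0.17, adjusted p 0.00158) and miR-543-5p (-0.52) the other. Against cerebellum 14 were higher and 3 lower (22.6% of all called, 13.9% higher and 8.7% lower), with miR-487b-3p (1.66 ± 0.28), miR-411-3p (1.42 ± 0.22), miR-380-3p (1.24), miR-369-3p (0.87), miR-382-5p (-0.62) and miR-411-5p (-0.40). miR-487b-3p, miR-411-3p, miR-380-3p, miR-369-3p and miR-382-5p were called against both other regions.

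The genotype effect in naive mice was higher in cortex than in striatum for 7 members and lower for none (7.63% of all called, 7.33% higher and 0.305% lower), led by miR-487b-3p (1.15 ± 0.28), miR-411-3p (1.12 ± 0.21, adjusted p 0.000664), miR-299a-5p (0.79) and miR-380-3p (0.74). That count was 3 with RLE scaling, where 24 of all 655 miRNAs were called. It was 14, 12 higher and 2 lower, without CX_DYT6KO_naive_16 and CX_DYT6KO_naive_18, where 113 of all 675 were called. Against cerebellum 14 were higher and 3 lower (19.8% of all called, 14.0% higher and 5.8% lower), with miR-411-3p (1.12), miR-487b-3p (1.09), miR-380-3p (0.91), miR-376a-5p (0.72), miR-382-5p (-0.57) and miR-543-5p (-0.55). Without the same 2 libraries 13 were higher and 5 lower, a count with no share of all miRNAs beside it and no result about the members. All 4 of these differences draw on the same wild-type naive cortex libraries.

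miR-377-3p was either well counted or not counted at all. In cortex it was at 0 in 14 of 23 libraries and had 65 to 191 counts in the other 9, of which 4 were Thap1+/- naive, 4 wild-type crush and 1 wild-type naive. In striatum it was at 0 in 16 of 24 libraries with 100 to 197 counts in the rest, and in cerebellum at 0 in 19 of 24 with 21 to 61. No library held a value between, and no fold change is given for it.

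The miRNAs at the proximal end of the domain, around Meg3, Rtl1as and Rian, are cut from the same imprinted transcription unit or its neighbours. Of their 23 tested, 18 were higher and none lower in striatum than in cortex, and none were higher and 21 lower in cerebellum than in striatum. In wild-type cortex after crush 8 rose and 6 fell, with a median of -0.02 against the 0.23 of the Mirg members. In naive cortex 7 were higher and 4 lower in Thap1+/-, with a median of -0.06. In each of these comparisons a larger share of the proximal miRNAs was called than of the Mirg members or of all miRNAs. Whether these shares differ was not tested. Of 6 tested miRNAs taken by number as neighbours of the cluster, outside the number rule, 1 rose and 1 fell after crush in wild-type cortex. That share called is near that of all miRNAs.

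The authors' deposited table called 13 members higher and 8 lower in wild-type cortex after crush, among 175 miRNAs called in all. For genotype in naive cortex the authors' deposited table gave 9 higher and 5 lower of 122, and for genotype in crushed cerebellum 5 higher and 5 lower of 80.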

How the data were processed

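The deposited tables held whole-number counts per mature miRNA for 71 of 72 labelled samples, not normalized. The authors' counting used featureCounts 1.6.4, with R 4.1.0 also named, per the submitters' processing notes, from libraries of 10 ng RNA, per the labels' protocols. The aligner, the annotation and the build were not given in the sources used here. Of the authors' results columns in the deposited tables, log2 fold changes and adjusted p-values were read only to count their calls, and the other 284 per-sample columns were not used. Library groups came from column names, whose numbers could not be matched to single titles.

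Counts were tested with edgeR 4.0.16 (limma 3.58.1, R 4.3.3): TMM, filterByExpr with a minimum count of 10, quasi-likelihood F tests, two-sided, Benjamini-Hochberg over all miRNAs tested, called at 0.05. Each region was fitted with its 4 groups, on 549, 575 and 552 miRNAs in cortex, striatum and cerebellum, the 17 naive wild-type libraries in a fit on 579 and all libraries on 655. Each standard error was taken as the size of the log2 fold change divided by the root of F. CPM are TMM-scaled counts relative to a common library total, within a fit. Members and lists were chosen with earlier results of these data known. The 6 most abundant members, and up to 4 called members each way with the smallest p and a mean of at least 10 CPM, got library values, up to 6 with the largest changes were named between regions, and where none was called the 3 with the smallest p were named as not passing. Other called members, both synaptic regulators and miR-377-3p were added after their values had been seen.

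Alternatives were RLE scaling, other filters, no let-7 and miR-98, DESeq2 1.42.0, fits of the groups compared alone and leaving out each library. The G-content offset, the sets without cerebellar library pairs, and the joint fit and shares without library pairs were added after seeing the data. No library pair of a group was a duplicate: in the least different pair, chi-square over its degrees of freedom was 10.9. The fits of 3 comparisons were tested on simulated data. They recovered 48% to 54.6% of log2 changes of 0.5 and 83.7% to 92.9% of changes of 1, and called at most 1.13% of unchanged miRNAs. The simulated counts were drawn independently around a common mean, without the G-content slopes or let-7 shifts of the real libraries. The rate for unchanged miRNAs therefore does not measure false calls in the real data. Many miRNAs were changed at once, so recovery can be lower in a comparison where few change. A comparison with no call can therefore miss moderate changes. Figures were drawn with matplotlib 3.10.9.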

Additional observations from a re-analysis of the deposited data

Results flagged for a closer look

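In groups of 5 or 6 libraries, 7 sets of values held a library set apart from the others by a gap that is large for the group's range. Chance sets apart about 1 in 20, or 6.8 of the sets examined. In cortex these were miR-382-5p and miR-369-5p in CX_DYT6KO_naive_18, at 5308 and 1948 CPM, miR-411-5p in CX_DYT6KO_naive_16 at 5660 CPM, miR-369-5p in CX_wt_naive_31 at 1876 CPM and miR-411-3p in CX_DYT6KO_crush_47 at 30.6 CPM. The others were miR-376b-3p in STR_DYT6KO_crush_8 at 3137 CPM and miR-299a-3p in CB_wt_naive_136 at 38.0 CPM.

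The crush effect in cortex differed between genotypes, by the interaction term, for 8 of 53 members (15.1%, against 13.5% of all miRNAs). Among them were miR-382-5p (0.72), miR-487b-3p (-1.11), miR-411-3p (-0.98), miR-379-3p (-0.89) and miR-329-5p (-0.64). The 8 include miR-377-3p, which had no count in most cortex libraries. The interaction term shares its wild-type naive libraries with the wild-type crush and naive genotype comparisons in cortex. In the joint fit, the wild-type crush effect in cortex differed from the striatal one for 15 of 55 members (27.3%, against 22.0% of all). It differed from the cerebellar one for 17 (30.9%, against 22.6% of all). In the same order of regions, the genotype effect in naive mice differed for 7 (12.7%, against 7.63%) and 17 (30.9%, against 19.8%). Whether the members' shares differ from those of all miRNAs was not tested.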

How the results depend on the processing

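No fold change of a named member reversed in the settings run. Of the 79 called among 106 named, 481 of 550 refits under other settings and 999 of 1144 that left out a library kept the call. The 14 higher and 6 lower members of wild-type crush cortex became 14 and 8 with RLE scaling and 16 and 4 without let-7 and miR-98 (15 to 24 with a library left out). Counts of members in this section without a share of all miRNAs show how calls moved and are no result about the members.

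For genotype in naive cortex, 9 members were called with the G-content offset, 0 in a fit of the 2 groups alone and 27 without CX_DYT6KO_naive_16 and CX_DYT6KO_naive_18. Leaving out a library gave 6 to 28, with 28 without CX_DYT6KO_naive_18, 6 without CX_DYT6KO_naive_63 or CX_wt_naive_31, 7 without CX_DYT6KO_naive_76, 8 without CX_DYT6KO_naive_135 or CX_wt_naive_67 and 9 without CX_wt_naive_96. Dropping let-7 and miR-98 gave 13 higher and 4 lower. The cortex interaction gave 13 with DESeq2, 4 with the offset, 15 with a minimum count of 50 and 28 without both libraries, and with a library left out 5 to 25 (25 without CX_DYT6KO_naive_18, 13 without CX_DYT6KO_naive_16 or CX_wt_naive_118, 5 without CX_DYT6KO_naive_63 or CX_DYT6KO_naive_76), with 2 higher and 6 lower under RLE scaling. Crush in Thap1+/- cortex gave 2 with DESeq2, 5 without both libraries and 0 to 2 with one left out, the 2 without CX_DYT6KO_naive_18. Calls over all miRNAs moved too. For the interaction they were 105 of 520 with DESeq2, 102 of 361 with a minimum count of 50 and 207 of 560 without both libraries.

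For genotype in crushed cerebellum the 9 calls became 0 with the offset, 1 in the fit of the 2 groups, 3 with no low-count filter, 18 without CB_DYT6KO_crush_117 and CB_DYT6KO_crush_133, 0 without CB_DYT6KO_crush_47 and CB_DYT6KO_crush_86, 3 higher and 3 lower with RLE scaling or without let-7 and miR-98, and 1 to 11 with a library left out (1 without CB_DYT6KO_crush_47 or CB_DYT6KO_crush_86, 4 without CB_wt_crush_11, CB_wt_crush_139, CB_wt_crush_2 or CB_wt_crush_3). For crush in Thap1+/- cerebellum the 2 calls became 4 with DESeq2, 0 with the offset, the 2-group fit, no filter or without CB_DYT6KO_crush_47 and CB_DYT6KO_crush_86, 1 without let-7 and miR-98, 15 without CB_DYT6KO_crush_117 and CB_DYT6KO_crush_133, and 0 to 6 with a library left out. That was 6 without CB_DYT6KO_crush_117 or CB_DYT6KO_crush_133, 1 without CB_DYT6KO_crush_8, CB_DYT6KO_naive_16, CB_wt_crush_139, CB_wt_crush_14 or CB_wt_naive_31, and 0 without CB_DYT6KO_crush_47, CB_DYT6KO_crush_86, CB_DYT6KO_naive_135, CB_DYT6KO_naive_18, CB_DYT6KO_naive_63, CB_DYT6KO_naive_76, CB_wt_crush_113 or CB_wt_crush_3. Crush in wild-type striatum gave 0 with RLE scaling, no filter, the 2-group fit or the offset, and 0 to 1 with a library left out. Over all miRNAs, leaving out CB_DYT6KO_crush_117 and CB_DYT6KO_crush_133 gave 170 of 581 calls for genotype in crushed cerebellum and 153 of 581 for crush in Thap1+/- cerebellum. The cause of these shifts was not tested.

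Between regions, leaving out a library gave 31 to 36, 34 to 39 and 40 to 42 calls for striatum over cortex, cerebellum over cortex and cerebellum over striatum, and 8 to 10 hairpins for the arm ratio in wild-type crush cortex. The other comparisons with no call, in cortex for genotype after crush and in striatum and cerebellum, stayed at 0. The genotype effect in cortex minus striatum fell from 7 to 3 with RLE scaling, no filter or no let-7 and miR-98, and was 14 without CX_DYT6KO_naive_16 and CX_DYT6KO_naive_18. Without the let-7 and miR-98 rows the other joint counts were 13 and 6, 9 and 5, and 10 and 6. With let-7 and miR-98 out of the denominator the cluster share's log2 ratio was 0.22, -0.37 and -0.59 between regions, -0.061 and -0.018 for crush and genotype in cortex, and -0.0085, 0.16 and 0.14 for genotype in naive, genotype in crushed and crush in Thap1+/- cerebellum.

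With the column number as a replicate block the region comparisons gave 35, 38 and 43 calls against 33, 38 and 42. Only 4 of 16 same-number pairs had a correlation over 0.1 (-0.042 to 0.156), which did not meet the rule for pairing. A library correlated best with its own number in 12 of 32 checks, where chance gives 5.67, a hint from the data and not from the design. No paired analysis was possible within a region because the groups share no number. Members under 10 CPM rest on few counts, and leaving out single libraries was not run for the joint fit.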
